A study of Homo sapiens with 8 samples.

Results

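Collagens and laminins are the families of extracellular matrix proteins followed here through 8 RNA libraries of cells labelled as human uveal melanoma (UVM) with low or high APOBEC3B (A3B). The members were gene symbols of the form COL, number, A, number or LAM, letter A to C, number, and 44 collagen and 11 laminin genes are described, 55 of the 19952 symbols listed. The 4 groups, with 2 libraries each, were 92.1 cells carrying a control vector (shCtrl), 92.1 cells with A3B knockdown by a short hairpin RNA (shA3B), MEL290 cells with a negative control (NC) and MEL290 cells overexpressing A3B (A3B OE). All 4 groups were stable lines made with lentivirus and selected with puromycin. The labels do not say which hairpin was sequenced, nor that the 2 libraries of a group came from separate cultures, so the p-values measure the spread between these libraries, which may be technical. Knockdown was done in 92.1 alone and overexpression in MEL290 alone, so cell line, vector and direction of the A3B change cannot be told apart.

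Collagens are secreted or membrane-bound proteins whose chains wind into triple helices. Fibrillar collagens build the fibres of connective tissue, type IV collagens form the sheet of the basement membrane, and smaller classes sit on fibrils, link them or span the cell membrane. Laminins are cross-shaped trimers of an alpha, a beta and a gamma chain, which line the cell side of the basement membrane and bind integrins. Melanocytes of the uvea lie in a stroma rich in collagen, and the matrix patterns of uveal melanoma are a known histological feature of the tumor.

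Expression was given as FPKM, fragments scaled by transcript length and by the mapped total, which allows levels of different genes to be compared. Relative depth lay between 0.651 and 1.12 times that of the first shCtrl library, as estimated from low FPKM values. APOBEC3B itself was at 35.9 and 32.3 FPKM in shCtrl against 1.98 and 2.37 in shA3B, and at 2.67 and 2.19 in NC against 28.4 and 27.5 in A3B OE. The labelled cell type held for 92.1, where the 8 melanocyte markers summed to between 7116 and 8713 FPKM. In MEL290 the same markers summed to between 15.2 and 20.7 FPKM, 6 of 8 were under 1 FPKM in all 4 libraries, and TYR was listed at 0 in all 4. MITF carried the MEL290 sum, at 13.7 to 19.6 FPKM. The labelled cell type was thus not borne out by these markers in MEL290, which bears on every value that sets the lines side by side. The 6 fibroblast markers summed to between 4.68 and 6.002 FPKM in 92.1 and between 40.1 and 53.0 in MEL290. In MEL290 PDGFRB and FAP carried the sum and PDGFRA, DCN, LUM and THY1 stayed under 1 FPKM. The 4 epithelial markers summed to between 5.06 and 7.10 FPKM in 92.1 and between 0.389 and 2.65 in MEL290, with CDH1 at 2.14 in the second A3B OE library, and the 4 markers of the retinal pigment epithelium to between 7.46 and 9.30 and between 0.366 and 1.13. Each endothelial and leukocyte marker was under 1 FPKM in all 8 libraries.

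The families split sharply between the cell lines. Summed over the 55 genes, FPKM lay between 437 and 519 in the 92.1 libraries and between 2033 and 2234 in MEL290, which was 0.0692% to 0.0771% and 0.327% to 0.362% of the summed FPKM of all genes. In MEL290, COL4A1 and COL4A2 alone made up 45.8% to 55.9% of the members' sum, against 17.3% to 21.0% in 92.1. Of the 55 genes, 21 were under 1 FPKM in all 8 libraries and 1, COL6A5, was listed at 0 throughout. Only 10 had a mean of at least 1 FPKM in every group, whereas 6 were at 10 FPKM or more in MEL290 and under 1 in 92.1, and 6 showed the opposite pattern. The share of all genes with these patterns was not determined, so the counts describe the members alone. Most genes differed between the lines, with 73% of all genes tested called between the control groups by the limma test described below.

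**Figure D1:**
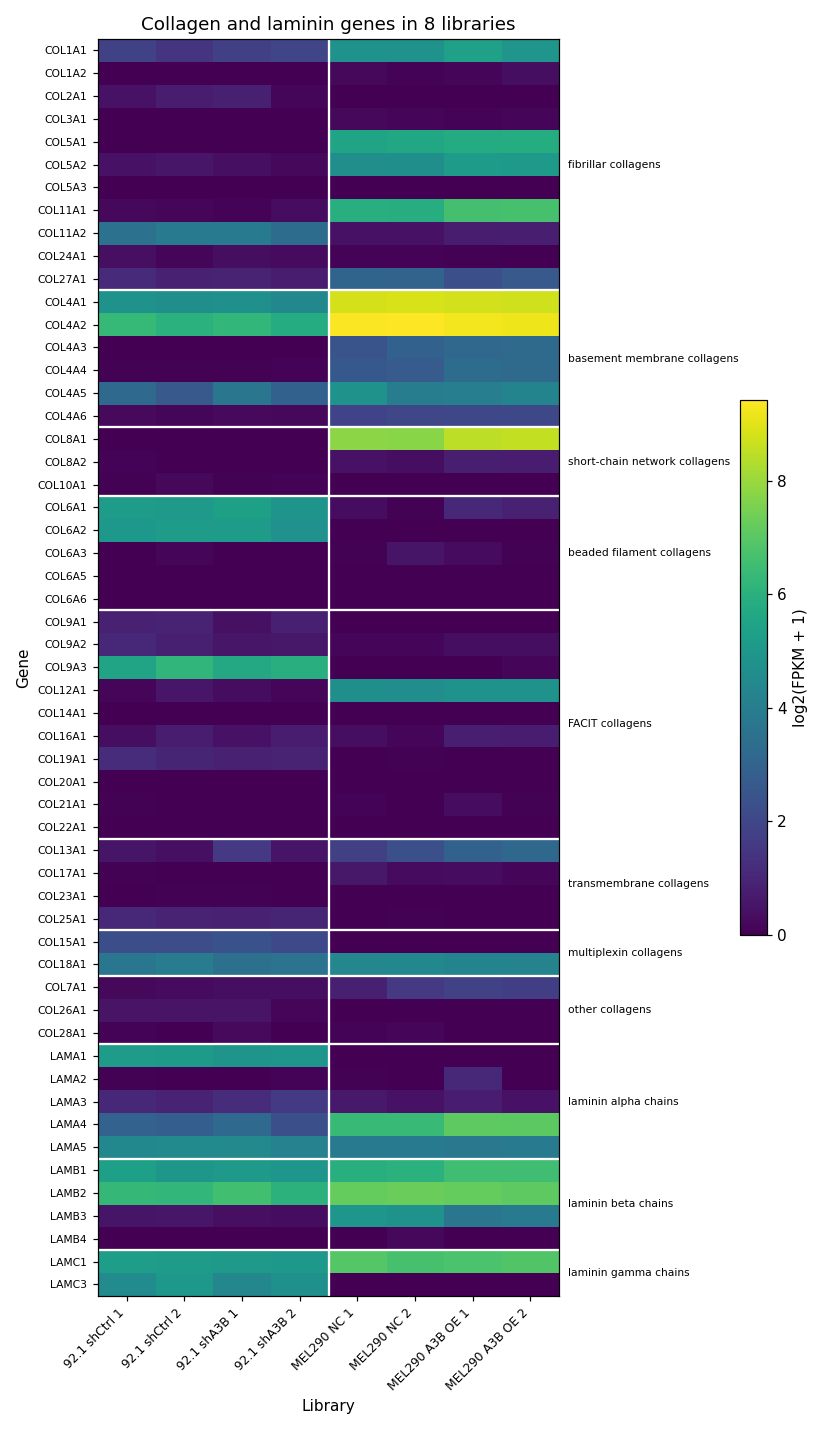
Each row is a collagen or laminin gene, grouped by class, each column a library, and color shows log2(FPKM + 1). The left 4 columns (92.1) and the right 4 (MEL290) differ in most rows, with COL4A1, COL4A2 and COL8A1 brightest in MEL290 and LAMA1, LAMC3, COL6A1, COL6A2 and COL9A3 bright in 92.1 alone.

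**Figure D2:**
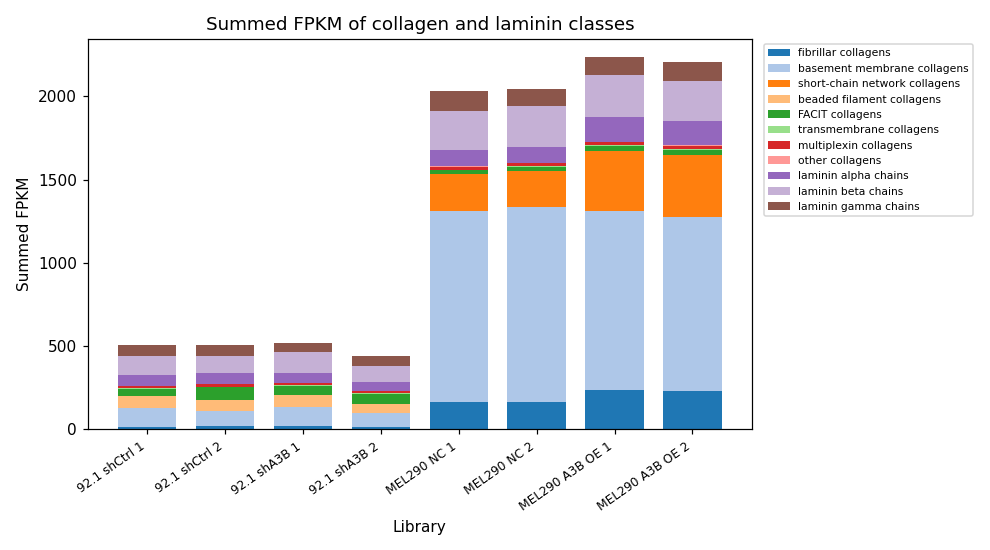
Stacked bars give the summed FPKM of each structural class in each library. The MEL290 bars reach 2033 to 2234 FPKM, with basement membrane collagens as the tallest segment, and the 92.1 bars reach 437 to 519 FPKM.

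Basement membrane collagens had the highest sum of any class in MEL290 and of the collagen classes in 92.1, where the laminin beta chains summed higher in each library (96.04 to 129 FPKM against 82.4 to 114). COL4A1 and COL4A2 encode the chains of the common type IV trimer, and their genes start head to head on chromosome 13, COL4A1 at chr13:110148963-110307157 on the minus strand and COL4A2 at chr13:110305812-110513209 on the plus strand (GRCh38, GENCODE 44). The stretch between the annotated RefSeq starts spans only 126 bases (chr13:110307158-110307283, GRCh38.p14), of which 80.2% are G or C. By the GENCODE coordinates this stretch lies inside COL4A2 and overlaps exons of 2 of its 18 transcripts. It is shown because both genes were higher in MEL290, with CCAAT and GGGCGG motifs in capitals:
COL4A1-COL4A2: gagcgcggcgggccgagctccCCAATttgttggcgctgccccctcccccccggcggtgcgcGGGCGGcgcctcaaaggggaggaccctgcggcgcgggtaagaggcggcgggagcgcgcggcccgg

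COL4A1 was at 26.8 and 24.9 FPKM in shCtrl, 25.5 and 20.0 in shA3B, 445 and 457 in NC and 439 and 424 in A3B OE. COL4A2 was at 79.0 and 63.6 FPKM in shCtrl, 75.3 and 55.5 in shA3B, 666 and 685 in NC and 605 and 586 in A3B OE. Every MEL290 library thus lay above every 92.1 library for both chains, whereas the manipulated and control libraries of a line lay close together. COL4A2 exceeded COL4A1 by a ratio of 2.55 to 2.95 in 92.1 and of 1.38 to 1.497 in MEL290.

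COL4A3 and COL4A4, chains of the type IV trimer of the kidney filter and other specialized basement membranes, form another head-to-head pair, whose nearest RefSeq starts lie 418 bases apart. COL4A3 was listed at 0 in 3 of the 4 libraries of 92.1 and at 0.0046 FPKM in the other one, and at 4.43 and 6.60 FPKM in NC and 7.86 and 8.44 in A3B OE. COL4A4 was under 0.1 FPKM in 92.1 and at 4.97 and 5.51 FPKM in NC and 9.13 and 8.67 in A3B OE. Both genes were therefore expressed at a measurable level only in the MEL290 libraries, at near-equal levels (COL4A3 to COL4A4 ratio of 0.861 to 1.198). The 250 bases upstream of the COL4A3 start (chr2:227164374-227164623, plus strand) are shown as part of the stretch between this pair, with GGGCGG or its reverse complement in capitals:
COL4A3 upstream: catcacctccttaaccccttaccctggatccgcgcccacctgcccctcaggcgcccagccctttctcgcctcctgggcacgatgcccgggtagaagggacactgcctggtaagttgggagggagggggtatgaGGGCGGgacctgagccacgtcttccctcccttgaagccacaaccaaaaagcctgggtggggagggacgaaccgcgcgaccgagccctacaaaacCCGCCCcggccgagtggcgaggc

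COL4A5 and COL4A6, the X-linked pair, were less even. COL4A5 was at 8.32 and 5.25 FPKM in shCtrl, 11.8 and 6.63 in shA3B, 26.8 and 14.9 in NC and 15.4 and 17.8 in A3B OE, with the first NC library well above the second. COL4A6 lay between 0.12 and 0.188 FPKM in 92.1 and between 2.76 and 3.10 in MEL290.

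Of 11 fibrillar collagens, 6 could be tested between the control groups, of which 5 were higher in MEL290 and 1 lower. By the same limma test, described below, 33.7% of all genes tested were higher and 39.3% lower. COL1A1, the major chain of type I collagen, was at 2.59 and 1.67 FPKM in shCtrl, 2.42 and 2.92 in shA3B, 26.9 and 27.5 in NC and 40.7 and 29.0 in A3B OE. Its trimer partner COL1A2 was listed at 0 in all 4 libraries of 92.1 and lay between 0.0764 and 0.26 FPKM in MEL290, so that COL1A1 exceeded it there by a ratio of 112 to 421. COL3A1, the reticular fibre collagen, did not exceed 0.137 FPKM in any library.

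COL5A1 and COL5A2, the type V chains that start and limit fibril growth, were nearly absent from 92.1. COL5A1 was listed at 0 in all 4 of its libraries and was at 44.1 and 49.6 FPKM in NC and 55.0 and 56.6 in A3B OE. COL5A2 lay between 0.153 and 0.475 FPKM in 92.1 and was at 24.3 and 24.8 FPKM in NC and 35.2 and 33.1 in A3B OE. COL11A1, which encodes a closely related chain found in cartilage and in many tumors, lay between 0.0752 and 0.228 FPKM in 92.1 and was at 58.3 and 57.1 FPKM in NC and 98.6 and 102 in A3B OE. All 3 genes were thus under 1 FPKM in each 92.1 library and above 20.0 in each MEL290 library. COL11A1 occupies chr1:102876467-103108872 on the minus strand, and the 250 bases upstream of its RefSeq start (chr1:103108523-103108772) are shown because it was the fibrillar gene with the largest rise under A3B OE, with GGGCGG and CCAAT in either orientation in capitals:
COL11A1 upstream: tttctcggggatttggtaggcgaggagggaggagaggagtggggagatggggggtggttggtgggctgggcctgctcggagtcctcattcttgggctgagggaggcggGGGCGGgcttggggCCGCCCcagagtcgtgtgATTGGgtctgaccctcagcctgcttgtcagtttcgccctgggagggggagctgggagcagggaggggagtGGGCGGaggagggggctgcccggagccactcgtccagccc

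The 1 that was lower was COL11A2, another type XI chain, at 10.8 and 13.4 FPKM in shCtrl and 13.8 and 9.10 in shA3B but between 0.361 and 0.752 in MEL290. COL11A1 and COL11A2 therefore had opposite patterns, each above 9 FPKM in 1 line and under 1 in the other. COL27A1 lay between 0.707 and 1.15 FPKM in 92.1 and was at 7.30 and 6.94 FPKM in NC and 3.98 and 5.20 in A3B OE. COL2A1, the main cartilage collagen, lay between 0.107 and 0.774 FPKM in 92.1 and was listed at 0 in MEL290, and COL24A1 lay between 0.135 and 0.305 in 92.1 and between 0.0128 and 0.066 in MEL290, so these chains were low in both lines.

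Among the remaining collagens, COL8A1 stood out. It encodes a short-chain network collagen of vessel walls and of the Descemet membrane of the eye (chr3:99638475-99799226, plus strand). COL8A1 was listed at 0 in all 4 libraries of 92.1 and was at 219 and 213 FPKM in NC and 357 and 373 in A3B OE, the highest level of any member in A3B OE after COL4A1 and COL4A2. Its partner COL8A2 lay between 0.267 and 0.714 FPKM in MEL290. COL12A1, a collagen that decorates fibrils, lay between 0.109 and 0.5 FPKM in 92.1 and between 23.3 and 27.8 in MEL290. COL18A1, the source of endostatin, was expressed in both lines, at 10.3 to 14.6 FPKM in 92.1 and 17.7 to 20.0 in MEL290. COL13A1, a transmembrane collagen, was at 2.46 and 3.86 FPKM in NC and 6.56 and 7.93 in A3B OE. In 92.1 COL13A1 was between 0.317 and 0.448 FPKM in 3 libraries and at 1.97 in the first shA3B library, which thus stood apart.

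A smaller group belonged to 92.1. COL6A1 and COL6A2, chains of the beaded filament collagen VI, were at 28.7 to 40.4 and 26.1 to 35.6 FPKM in 92.1, and in MEL290 COL6A1 lay between 0.047 and 1.11 FPKM and COL6A2 was listed at 0 in all 4 libraries. Their ratio in 92.1 was 0.919 to 1.14, yet COL6A3, the other chain of the common type VI trimer, stayed at or under 0.0987 FPKM there. COL9A3, a cartilage chain that sits on type II fibrils, was at 43.9 and 72.3 FPKM in shCtrl and 50.6 and 61.2 in shA3B, while COL9A1 and COL9A2, its trimer partners, lay between 0.347 and 1.14 FPKM in the same libraries. In MEL290 COL9A3 was listed at 0 in 3 libraries and at 0.124 FPKM in the second A3B OE library. COL15A1, a basement membrane zone collagen related to COL18A1, lay between 3.19 and 4.24 FPKM in 92.1 and at or under 0.0138 in MEL290.

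Each line had its own set of laminin chains on a shared base. The base was LAMB1, LAMB2, LAMC1 and LAMA5, the chains of the widespread laminins, which were above 10 FPKM in all 8 libraries. LAMA1, the alpha chain of the early embryonic laminin (chr18:6941742-7117797), was at 36.1 and 33.8 FPKM in shCtrl and 28.1 and 30.1 in shA3B and was listed at 0 in all 4 libraries of MEL290. LAMC3, a gamma chain, was at 22.6 and 31.7 FPKM in shCtrl and 19.8 and 25.5 in shA3B, and in MEL290 it was listed at 0 in 3 libraries and at 0.00582 FPKM in the other one. These chains were thus measured at 19.8 FPKM or more in each 92.1 library and close to or at 0 in each MEL290 library.

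LAMA4, the alpha chain of endothelial and mesenchymal basement membranes (chr6:112107931-112254939), was at 6.77 and 5.95 FPKM in shCtrl, 8.40 and 3.98 in shA3B, 82.1 and 80.2 in NC and 136 and 131 in A3B OE. LAMB3 (chr1:209614870-209652425) lay between 0.255 and 0.491 FPKM in 92.1 and was at 30.2 and 27.6 FPKM in NC and 12.1 and 13.2 in A3B OE. LAMB3 joins LAMA3 in the laminin of epithelial hemidesmosomes, but LAMA3 was at only 0.376 to 0.65 FPKM in MEL290 and at 0.905 to 2.03 in 92.1. The MEL290 libraries thus had transcripts of LAMB3 well above those of its alpha partner.

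The 250 bases upstream of an alternative or internal start of LAMB3 (chr1:209651375-209651624, minus strand) are shown because LAMB3 was the 1 member called lower with A3B OE, with TGACTCA in capitals, as are GGGCGG and CCAAT, each in either orientation:
LAMB3 upstream: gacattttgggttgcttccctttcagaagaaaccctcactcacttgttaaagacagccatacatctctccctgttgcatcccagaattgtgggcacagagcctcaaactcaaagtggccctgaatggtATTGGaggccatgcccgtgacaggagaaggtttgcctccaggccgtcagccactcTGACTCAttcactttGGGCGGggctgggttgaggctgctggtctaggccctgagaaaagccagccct

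Promoter motifs were searched on both strands in the 250 bases before 55 RefSeq starts of the 41 members with an entry. TGACTCA, the AP-1 motif, was found for LAMB3 and LAMA3, 4.88% of the 41 and close to the 4.2% of 35116 windows of all genes. The other motifs searched were GGGCGG, found for 27 of the 41 members (65.9%) against 42.6% of all windows, CCAAT, for 13 (31.7%) against 32%, TATAAA, for 7 (17.1%) against 10.7%, and CACGTG, for 0 against 6.34%. A gene with several windows had more chances to hold a motif than a single window. By window the member shares were 58.2% for GGGCGG, 25.5% for CCAAT, 14.5% for TATAAA and 3.64% for TGACTCA. COL8A1, LAMA1 and LAMC3 had no promoter entry.

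**Figure D3:**
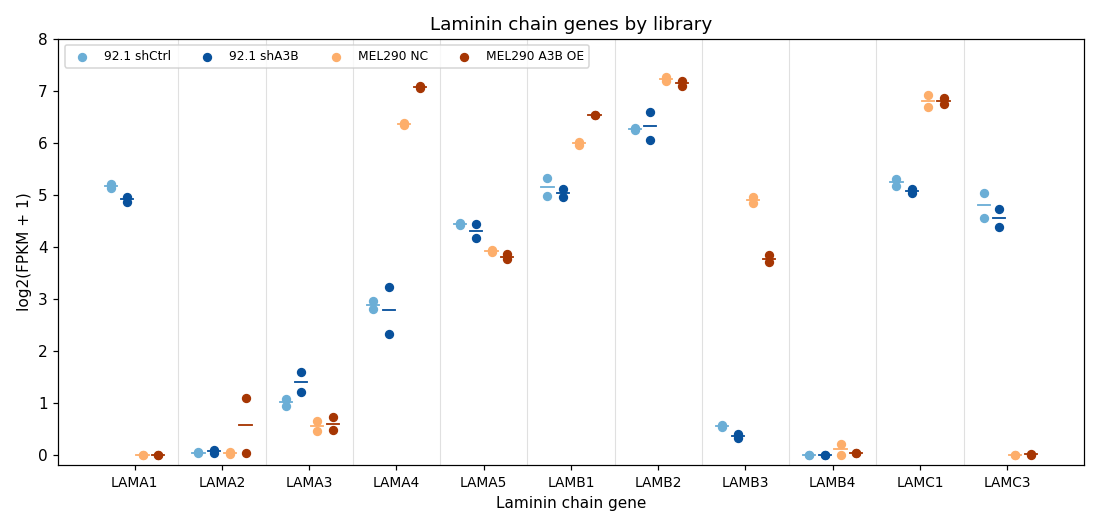
Points are log2(FPKM + 1) of each laminin gene in each library, bars the group means, and colors the 4 groups. LAMA1 and LAMC3 are high in 92.1 and at or near 0 in MEL290, LAMB3 the reverse, and within MEL290 the A3B OE points lie above NC for LAMA4 and LAMB1 and below it for LAMB3.

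The first comparison set control MEL290 (NC) against control 92.1 (shCtrl) and asked how the lines differ before A3B is changed. Differences were tested with limma on log2(FPKM + 1), with Benjamini-Hochberg adjustment over all 12352 genes tested and a threshold of 0.05. All 28 members that passed the filter on low values were called, 20 higher and 8 lower in MEL290, where 73% of all genes tested were called (33.7% higher, 39.3% lower) and 75.5% had an unadjusted p under 0.05. The libraries of the groups did not overlap for any of the 28, as for 87.3% of all genes. Of the 28, 18 were under 1 FPKM in at least 1 control library and most of those passed through 1 line alone, so the counts are a description. A more even view is given by the other 10, which were at 1 FPKM or more in all 4 control libraries. Of these, 9 were higher and 1, LAMA5, was lower in MEL290.

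The melanocyte, fibroblast, epithelial and retinal pigment epithelium sums given above moved with the line, and their part in these differences was not tested. In bulk libraries, fewer expressing cells and less RNA per cell cannot be told apart.

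Of those 10, COL4A1 differed most, with means of 25.9 ± 1.33 FPKM in shCtrl and 451 ± 8.41 in NC (SD, n = 2), a log2 difference of 4.07 (standard error 0.08, limma adjusted p = 2.6e-06). LAMA4 was higher by 3.48 (0.11), COL4A2 by 3.23 (0.12) and COL1A1 by 3.19 (0.18) on the log2 scale. LAMC1 (1.57), COL4A5 (1.46), LAMB2 (0.96), LAMB1 (0.84) and COL18A1 (0.53) were higher by less. LAMA5, the alpha chain of most adult basement membranes, was lower, at 20.6 ± 0.472 FPKM in shCtrl and 14.1 ± 0.208 in NC (SD, n = 2), a log2 difference of -0.52 (standard error 0.10, limma adjusted p = 0.0058). Among the members with a mean of at least 10 FPKM in 1 control group and under 1 in the other, COL11A1 was 432-fold, COL12A1 75.4-fold, LAMB3 61.2-fold and COL5A2 57.9-fold higher in NC, and COL6A1 225-fold and COL11A2 32.2-fold lower, in ratios of mean FPKM. Ratios over unequal values near 0 are rough. COL6A1 was at 0.253 and 0.047 FPKM in NC, and in shCtrl COL12A1 was at 0.136 and 0.5 and COL11A1 at 0.164 and 0.103. No ratio is given for genes listed at 0 in both libraries of a group.

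The second comparison, A3B OE against NC in MEL290, asked what changes when A3B is raised. Of 22 members tested, 8 were called, 7 higher and 1 lower with A3B OE, 36.4% against 17.8% of the 11611 genes tested (10.3% higher, 7.49% lower). The members were chosen with earlier results of these data known, so these shares are a description. The median log2 fold change of the 22 was 0.22, against 0.00 for all genes tested. For 19 of the 22 the libraries of the groups did not overlap, as for 61.3% of all genes. The called members were LAMB3, which was lower, and LAMA4, LAMB1 and 5 collagens, which were higher.

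LAMB3 was 2.28-fold lower, from 28.9 ± 1.83 FPKM in NC to 12.7 ± 0.832 in A3B OE (SD, n = 2), a log2 fold change of -1.13 (standard error 0.10, limma adjusted p = 0.0029). The A3B OE libraries of LAMB3 lay well below the NC libraries. LAMA3, its partner, was under 1 FPKM in all 4 libraries and was not tested. LAMC1, the gamma chain of most laminins, had means of 111 FPKM in both groups and a log2 fold change of 0.00 (95% interval -0.24 to 0.24).

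LAMA4 rose 1.64-fold, from 81.2 ± 1.35 to 133 ± 3.21 FPKM (SD, n = 2), a log2 fold change of 0.71 (0.07, limma adjusted p = 0.0030). LAMB1 rose 1.47-fold, from 62.5 ± 1.75 to 91.7 ± 0.411 FPKM (SD, n = 2), a log2 fold change of 0.55 (0.07, limma adjusted p = 0.0062). LAMB2, the alternative beta chain, did not pass the test at -0.09 (95% interval -0.26 to 0.09), nor did LAMA5 at -0.11 (-0.36 to 0.14). The LAMA4 to LAMA5 ratio was 5.89 and 5.63 in NC and 10.8 and 9.74 in A3B OE. With all 8 libraries in 1 fit, LAMA4 kept its log2 fold change and missed the threshold (limma adjusted p = 0.084).

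Of the collagens, COL13A1 rose 2.29-fold (log2 fold change 1.00, standard error 0.20, limma adjusted p = 0.022), from the low levels given above. COL11A1 rose 1.74-fold, from 57.7 ± 0.851 to 100.4 ± 2.45 FPKM (SD, n = 2), with a log2 fold change of 0.79 (0.07, limma adjusted p = 0.0027). COL8A1 rose 1.69-fold, from 216 ± 3.78 to 365 ± 11.5 FPKM (SD, n = 2), with a log2 fold change of 0.75 (0.06, limma adjusted p = 0.0024). In FPKM the COL8A1 rise was the largest of any member. COL4A4 (0.67, standard error 0.12, limma adjusted p = 0.017) and COL5A2 (0.46, 0.08, limma adjusted p = 0.018) rose as well. COL13A1, COL4A4 and COL5A2 missed the threshold when either A3B OE library was left out (limma adjusted p = 0.056 to 0.12), whereas the other 5 called members passed it in all 4 fits with 1 library left out.

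Some members next to these in function had values of the same sign without passing the test, and others did not. Counting the called members, 3 of 6 basement membrane collagens and 2 of 6 laminins tested were above 0, and 3 and 4 were below. COL4A3, the neighbor of COL4A4, had a log2 fold change of 0.51 (95% interval 0.06 to 0.95, limma adjusted p = 0.11) and COL5A1, the partner of COL5A2, of 0.25 (0.04 to 0.46, limma adjusted p = 0.10). COL1A1 was at 0.33 (-0.06 to 0.71), with 1 A3B OE library at 40.7 FPKM and the other at 29.0, close to the NC libraries, and passed only without the second A3B OE library (0.56, limma adjusted p = 0.045). COL27A1 was at -0.55 (-0.91 to -0.18, limma adjusted p = 0.056), opposite in sign to the other fibrillar chains tested. The abundant basement membrane chains moved little, COL4A1 by -0.06 (-0.21 to 0.08) and COL4A2 by -0.18 (-0.32 to -0.04, limma adjusted p = 0.089). COL4A2 passed under upper quartile scaling and after a GC and length trend was taken out (-0.19 and -0.22, limma adjusted p = 0.048 and 0.018). The 8 called members kept their direction and call under these scalings and under quantile normalization. Of the melanocyte and fibroblast markers, 2 each were tested in MEL290 and 0 were called (limma, 0 and 1 at an unadjusted p under 0.05).

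**Figure D4:**
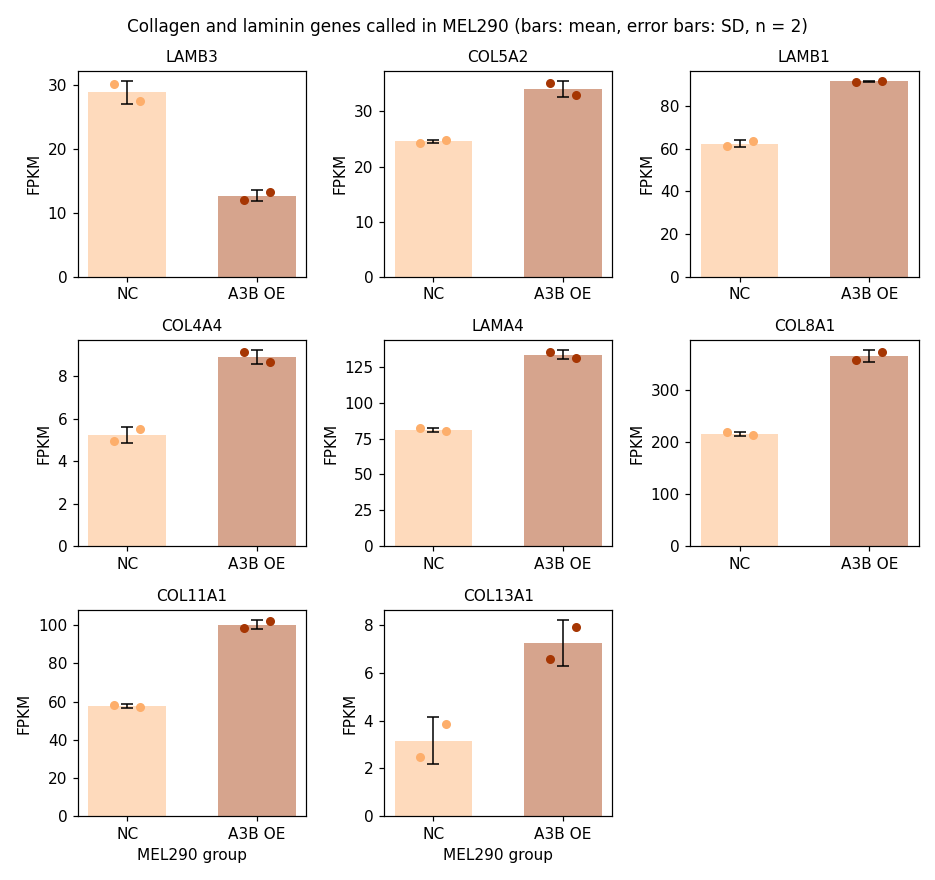
Bars are mean FPKM of the 8 called members in the MEL290 groups, points the 2 libraries and error bars the SD. LAMB3 falls from 28.9 to 12.7 FPKM, and in the other 7 panels both A3B OE points lie above both NC points.

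The third comparison, shA3B against shCtrl in 92.1, asked what changes when A3B is lowered. None of 18 members tested was called by limma, and 0 had an unadjusted p under 0.05, where 0.00862% of the 11605 genes tested were called (1 gene, APOBEC3B) and 2.9% had an unadjusted p under 0.05. The log2 fold changes ran from -0.30 for COL18A1 to 0.40 for LAMA3, 5 above and 13 below 0, with a median of -0.11 against 0.00 for all genes. For 4 of the 18, COL18A1, LAMA1, LAMC1 and LAMA3, the libraries of the groups did not overlap, as for 28.6% of all genes.

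The 92.1 chains were measured with moderate precision. LAMA1 went from 34.9 ± 1.63 to 29.1 ± 1.46 FPKM (SD, n = 2), a log2 fold change of -0.26 (95% interval -0.55 to 0.04). COL18A1 was at -0.30 (-0.64 to 0.03) and LAMA3 at 0.40 (-0.07 to 0.87). COL6A1 at 0.01 (-0.36 to 0.39), COL9A3 at -0.02 (-0.47 to 0.44) and LAMC3 at -0.24 (-0.65 to 0.16) had intervals on both sides of 0. The second shA3B library had the lowest value of the 4 for 11 of the 18 members. COL8A1 and COL5A1, which were abundant in MEL290, were listed at 0 in 92.1 and could not be tested there. LAMB3, COL13A1, COL11A1, COL4A4 and COL5A2 did not pass the filter on low values in 92.1 either. Of the members called in MEL290, only LAMA4 at -0.10 (-0.66 to 0.45) and LAMB1 at -0.12 (-0.46 to 0.22) were thus tested in 92.1.

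**Figure D5:**
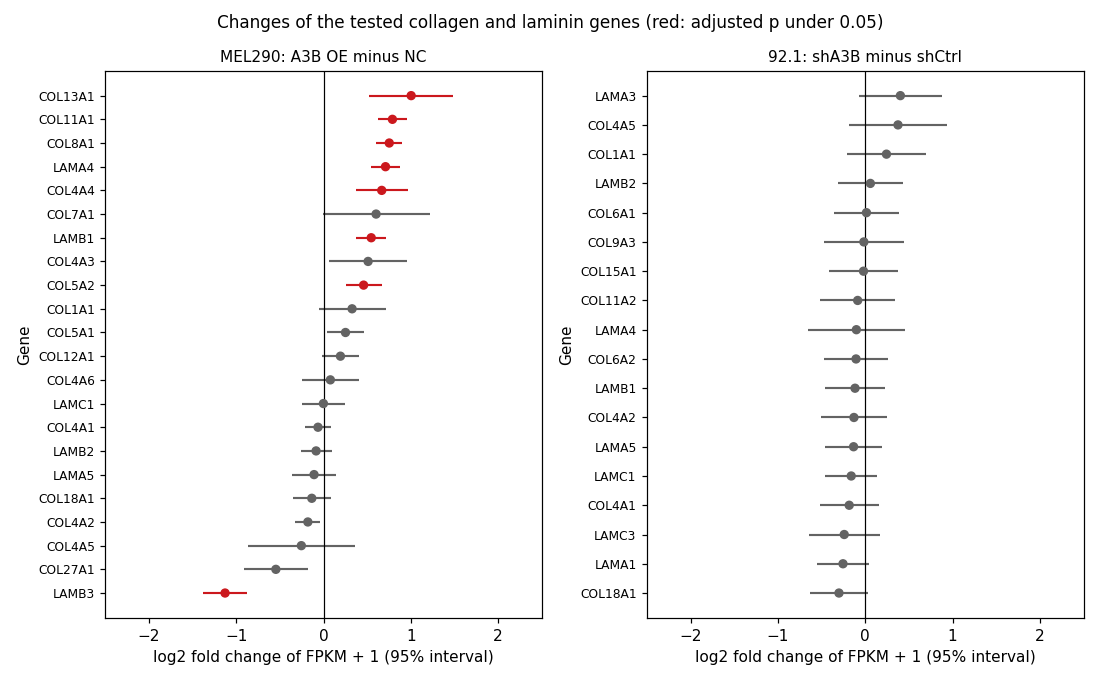
Points are log2 fold changes of FPKM + 1 with 95% intervals for the members tested, at left for A3B OE minus NC in MEL290 and at right for shA3B minus shCtrl in 92.1, with called genes in red. At left 8 of 22 are red, from LAMB3 at -1.13 to COL13A1 at 1.00, and at right 0 of 18 are red and the points lie between -0.30 and 0.40.

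The last comparison tested, in 1 fit over all 8 libraries, whether the change from low to high A3B differed between the lines. Of 30 members tested, 3 were called, against 5.57% of 12697 genes (3.59% higher, 1.98% lower in MEL290 than in 92.1). LAMB3 (-1.33, standard error 0.17, limma adjusted p = 0.0084) had a lower change in MEL290. COL11A1 (0.81, 0.16, limma adjusted p = 0.031) and COL8A1 (0.75, 0.13, limma adjusted p = 0.020) had a higher one, and the value of COL8A1, which is listed at 0 in 92.1, is that of its MEL290 change alone. All 3 were under 1 FPKM in each 92.1 library, so these differences are those of genes that 1 line hardly expressed, and no member at 1 FPKM or more in all 8 libraries was called. COL11A1 and COL8A1 missed the threshold with a pseudocount of 0.1 (limma adjusted p = 0.30 and 0.068) and when either library of NC or of A3B OE was left out (0.072 to 0.12). Both also missed it without the second shA3B library (0.086 and 0.056), and COL11A1 missed it without either shCtrl library (0.054 and 0.077). COL13A1 had the largest difference of a member that rose in MEL290, 1.58 (95% interval 0.56 to 2.61, limma adjusted p = 0.082), with 1 shA3B library of 92.1 apart from the other 3.

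Genes that make, cross-link, bind and remove these proteins were followed in 7 lists of 124 genes. In MEL290, 83 of them were tested and 38 were called with A3B OE, 21 higher and 17 lower, 45.8% against 17.8% of all genes (10.3% higher, 7.49% lower). The lists were chosen with earlier results of these data known, so this share and those per list below are a description. Receptors for collagens and laminins had 7 of 11 tested genes higher and 1 lower. BCAM, a receptor for LAMA5-containing laminins, went from 9.82 and 9.87 FPKM in NC to 23.5 and 22.6 in A3B OE (log2 fold change 1.15, limma adjusted p = 0.0025). The laminin-binding integrin chains ITGA3 (0.70) and ITGB4 (0.62) rose too, as did the collagen-binding ITGA1 (0.82), and the collagen uptake receptor MRC2 fell (-0.44).

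Among 21 processing genes tested, 1 was higher and 4 were lower, 23.8% against the same 17.8% of all genes, and those named here are PLOD3, a lysyl hydroxylase (-0.55), PPIB, a prolyl isomerase (-0.51), PCOLCE2, an enhancer of procollagen cleavage (-0.49), and MIA3, which helps load collagen for export (0.38). Of 5 cross-linking genes tested, LOXL2 (0.58) and TGM2 (0.40) rose and LOX (-0.48) and LOXL1 (-0.34) fell. LOX, a lysyl oxidase, was at 356 and 350 FPKM in NC and 250.4 and 253 in A3B OE. Basement membrane partners gave 2 higher and 2 lower of 7 tested. NID1 and NID2, the nidogens that tie laminin to type IV collagen, rose from 1.25 and 1.59 to 4.55 and 4.70 FPKM and from 2.41 and 3.38 to 6.03 and 8.34 FPKM (1.22 and 1.07 on the log2 scale), and the abundant SPARC (-0.29) and HSPG2 (-0.25) fell.

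Interstitial matrix proteins had 5 of 11 tested genes higher and 2 lower, 63.6% against 17.8% of all genes (10.3% higher, 7.49% lower). EFEMP1, a fibulin, rose from 12.1 and 9.73 to 37.3 and 38.4 FPKM (1.71) and POSTN, periostin, from 18.6 and 18.7 to 42.9 and 50.8 FPKM (1.28). TGFBI, a collagen-binding protein induced by TGF-beta, fell from 3340 and 3449 to 1903 and 1805 FPKM (-0.87), and TNC, tenascin C, fell as well (-0.72). Of 11 degradation genes tested, TIMP3, a metalloproteinase inhibitor, rose (1.08) and MMP24 (-0.65) and the collagen-cleaving protease CTSK (-0.65) fell. The called share of these degradation genes was 27.3%, nearer to the share of all genes. In the TGF-beta pathway 3 of 17 rose and 4 fell (41.2% called). TGFB2, a ligand, went from 52.3 and 47.3 to 14.4 and 15.4 FPKM (-1.68) and TGFB1, another ligand, from 46.8 and 49.8 to 84.2 and 80.4 FPKM (0.76), so the ligands had opposite directions. INHBA (-0.75) and CCN2 (-0.72), an activin subunit and a matrix-associated signaling protein, fell. MIA3, HSPG2, SPARC, LOXL1, ITGA1, PCOLCE2 and TNC, and COL13A1 among the members, each lost the call under 4 to 9 of the alternatives tried.

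In 92.1, 0 of 67 tested genes of the same lists were called after A3B knockdown by limma, and 3 had an unadjusted p under 0.05, P3H1, SPARC and TGFB1, which are named after their values were seen. Of all genes tested in 92.1, 0.00862% were called and 2.9% had an unadjusted p under 0.05. Between the controls, 61 of 90 tested list genes were higher in MEL290 and 19 lower, 88.9% called against 73% of all genes (33.7% higher, 39.3% lower). Many list genes, such as PXDN, TGM2 and TGFBI in shCtrl and FBLN1 and MMP17 in NC, were under 1 FPKM in 1 control group. These passed the filter through the other line alone, so the counts are a description. Of 6 cross-linking enzymes tested, 5 were higher, TGM2, PXDN, LOXL1 and LOX by 6.06 to 7.22 on the log2(FPKM + 1) scale, and LOXL3, named after its values were seen, was lower (-2.09). TGFBI was listed at 0 in all 4 libraries of 92.1. FBLN1, a basement membrane fibulin, was listed at 0 in all 4 libraries of MEL290 and at 118 and 108 FPKM in shCtrl, and MMP17, a membrane-anchored metalloproteinase, was at 153 and 152 FPKM in shCtrl and at 0 and 0.122 in NC. In the test of the difference between the lines, 13 of 92 list genes were called, 7 higher and 6 lower, 14.1% against 5.57% of all genes, with TGFB2 at -1.69, EFEMP1 at 1.69 and TGFB1 at 1.47. Most of the 13 were under 1 FPKM in each 92.1 library, TGFB2 at 0.141 to 0.194, and passed the filter through MEL290. Their differences are thus those of genes that 1 line hardly expressed, and the counts are a description. EFEMP1, at or under 0.172 FPKM in 92.1, missed the threshold with a pseudocount of 0.1 (limma adjusted p = 0.21). TGFB1 had a positive log2 fold change both with knockdown (0.72, not called) and with overexpression (0.76), so when the changes were taken as manipulated minus control in both lines their difference was 0.0414 (limma adjusted p = 0.93).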

How the data were processed

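Total RNA of 8 cell line libraries was sequenced as paired-end reads. The authors aligned them to GRCh38 with STAR and calculated 1 FPKM value per gene with Cufflinks over Ensembl annotations, and these deposited FPKM values were used as they stand. How Cufflinks divided fragments between overlapping genes is not known, and a value of exactly 0 can be a failed estimate. The authors also ran Cuffdiff, which needs reads and was not run here. Of the members and of the list genes, 1 each is not reported here and enters no count of them.

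Only genes that reached 1 FPKM in 2 or more libraries of a comparison entered its fit. Their log2(FPKM + 1) was fitted with limma 3.58.1 (lmFit, eBayes with a trend) in R 4.3.3, and a gene was called when its p, adjusted after Benjamini and Hochberg, lay under 0.05. Fold changes on this scale understate the change of low genes. With 2 libraries against 2, the smallest p of an exact permutation test (two-sided) on 1 gene is 0.33. The fits were tested on simulated data, and the outcome is not reported here.

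Members and gene lists were chosen with earlier results of these data known. Named genes are members with a group mean of at least 10 FPKM, called members (up to 15 per comparison with the largest change) and up to 4 called genes per list and comparison, other members being given as trimer partners or by range. Coordinates are from GENCODE 44, which named 19033 of the 19952 symbols and all 55 members, and promoter sequences from RefSeq (GRCh38.p14), which had entries for 41 members. Relative depth was estimated from ratios of low FPKM values between libraries, a method chosen after the values were seen, and no counting error is given. The ratios between chains were also chosen after the values were seen.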

Additional observations from a re-analysis of the deposited data

Results flagged for a closer look

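For 3 members the change from low to high A3B differed between the cell lines in a test of the difference itself (limma, 1 fit over all 8 libraries). The change on the log2(FPKM + 1) scale was lower in MEL290 than in 92.1 by -1.33 for LAMB3 (adjusted p = 0.0084), and higher by 0.809 for COL11A1 (adjusted p = 0.031) and by 0.752 for COL8A1 (adjusted p = 0.020). With a pseudocount of 0.1 COL11A1 and COL8A1 missed the threshold (adjusted p = 0.30 and 0.068). In 92.1 all 3 genes were under 1 FPKM in each library, at most 0.491 for LAMB3 and 0.228 for COL11A1, and COL8A1 was listed at 0, so its value is that of the MEL290 change alone. The 3 genes passed the filter on low values through MEL290. Line, vector and direction of the A3B change cannot be told apart.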

How the results depend on the processing

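The count of called members in 92.1 stayed at 0 under every alternative. In MEL290 the 8 calls became 2 when a log2 fold change of at least 1 was also asked, 6 with no filter on low FPKM, 7 with all 8 libraries in 1 fit and 5 to 11 when 1 library was left out. The 28 calls between the controls became 10 when FPKM of at least 1 was asked in every library, where 10 members were tested, and 24 to 27 when 1 library was left out. The 3 calls for the difference between the lines became 1 with the minimum fold change, 1 with a pseudocount of 0.1, 0 with FPKM of at least 1 in every library, where the 3 genes are not tested, and 1 to 3 with 1 library left out. The cause of the other changes was not tested.

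The replicate number as a block gave 8 calls in MEL290, 0 in 92.1 (37 against 1 over all genes), 28 between the controls and 1 for the difference between the lines. Same-numbered libraries had correlations of 0.19 in 92.1 and -0.03 in MEL290, so the numbers are not shown to pair libraries. Quantile normalization turned the sign of COL9A3 in 92.1 (0.0256) and LAMC1 in MEL290 (0.0359), and taking out a GC and length trend that of COL11A2 (0.0104), COL6A2 (0.0212) and COL9A3 (0.12) in 92.1, none of them called. With 1 library left out, log2 fold changes in 92.1 ran from -0.35 to 0.0858 for COL4A2, -0.30 to 0.0595 for LAMB1, -0.36 to 0.19 for COL11A2, -0.23 to 0.25 for COL6A1, -0.37 to 0.34 for COL9A3, -0.0016 to 0.75 for COL4A5, -0.21 to 0.32 for LAMB2, -0.32 to 0.11 for COL6A2, -0.56 to 0.35 for LAMA4 and -0.27 to 0.0031 for LAMA5, and in MEL290 from -0.12 to 0.12 for LAMC1 and -0.66 to 0.15 for COL4A5. Of the other values of single genes, 1301 kept their direction and side of the threshold, 153 missed the threshold and 4 passed it under an alternative. Precision is limited by 2 libraries a group. FPKM gives no counting error, so whether a gene near 0 differs is not detectable here.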
